A study of Mus musculus with 6 samples.

Results

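Single wild-type bone marrow-derived macrophages were compared after 8 h and 2 h of lipopolysaccharide (LPS), over all genes, to describe which transcripts that appear early were lost again, which were held and which started late. The members are the wells named for wild-type cells at 2 h or 8 h in the UMI count matrix, without wells of more than 25000 UMIs, a limit set with the depths known. They are 434 of the 1362 cells of the series, 181 at 2 h, where 5 wells were left out, and 253 at 8 h, where 4 were left out. MARS-seq, the assay used, sorts single cells into plates and counts transcripts by unique molecular identifiers (UMIs). The wild-type cells carried an inducible Cre in the Rosa26 locus (Rosa26-ERt2Cre) and unmodified Rad21, and the other genotype, Rad21-/-, carried the same Cre with loxP-flanked Rad21, the gene of a cohesin subunit. Both had been differentiated from bone marrow with L929-conditioned medium and both had been given 200 nM 4-hydroxy-tamoxifen on day 4, so that the wild-type cells had also been exposed to Cre activity. LPS from Salmonella typhosa was added on day 7 at 10 ng/ml. Untreated wild-type cells (238 of 239 wells) served as the start of the time course. Each genotype and time point is 1 sample of sorted cells, so there was no replicate check, no test was run and no p-value is given. All intervals are 95% and cover counting error only.

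LPS is sensed by TLR4 at the macrophage surface. Primary response genes, such as those of TNF, of many chemokines and of NF-kappaB inhibitors, are transcribed by factors already present in the cell (NF-kappaB, AP-1, SRF) and need no new protein. Secondary response genes wait for new chromatin changes or new factors, of which interferon beta is the best known. It is secreted, acts back on the cell through the interferon receptor, and raises antiviral and guanylate-binding protein genes. Many early transcripts carry AU-rich elements that make them short-lived, and feedback inhibitors such as A20 and tristetraprolin limit the response.

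Without the deep wells, the untreated sample kept 1445275 UMIs, the 2 h sample 1197415 and the 8 h sample 1556036. The median well held 5892 UMIs at 2 h and 5780 at 8 h, with a median of 2741 and 2515 genes. The wells left out had held 45.5% of the UMIs of the 2 h sample and 15.1% of those at 8 h. The cells of the 3 wild-type samples came from library pools that each held a single time point, 4 of them with at least 10 wells at 2 h and 8 at 8 h, so that pool and time cannot be told apart. The same 48 well barcodes were used at both times, but no pair of pool and barcode was shared and no 2 columns were identical. The macrophage markers summed to 10636 CPM (a gene's UMIs per 1000000 UMIs of the sample) at 2 h and 7817 at 8 h. Markers of B cells summed to 47.6 and 49.5 CPM, of T and NK cells to 45.1 and 41.1 CPM and of neutrophils to 0 and 10.3 CPM. No marker list other than the macrophage list passed 50 CPM at either time.

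Of the 18429 genes in the matrix, 6806 had at least 100 UMIs over the wild-type samples and were kept. Between 2 h and 8 h, 469 genes (6.89% of those kept) were at least 2-fold higher in CPM and 684 (10.0%) at least 2-fold lower. The median gene was at a log2 ratio of -0.17, and single values are best read against it. Higher genes made up 40.7% of the genes past 2-fold. They made up 54.3% when samples were scaled by the median of ratios and 26.5% when the deep wells were kept. At 4-fold, 150 genes (2.20%) were higher and 134 (1.97%) lower. Most genes lay within 2-fold of the untreated level after 2 h of LPS, whatever they did later. These were 347 of the 469 higher genes, 617 of the 684 lower genes and 5415 of the 5653 genes in between.

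Genes were placed in time classes by their pooled CPM. Early genes were at least 4-fold over untreated at 2 h, and there were 118 of them (1.73% of genes kept). They were called decayed when the 8 h level was lower by 2-fold or more, rising when it was higher by 2-fold or more, and held in between. Late start genes lay within 2-fold of untreated at 2 h and at least 4-fold higher at 8 h, and late loss genes were the same at 2 h and at least 4-fold lower at 8 h. This gave 31 decayed, 46 held, 41 rising, 97 late start and 109 late loss genes, and 3 genes lost at 2 h that stayed low. Because the 2 h sample enters both ratios, the class directions are a description of the rule. The same wells make up the pools, so pools and wells that lie apart in a class follow in part from its rule. Just inside and outside the limits lay Mmp12 (log2 ratio -1.03, decayed) and Skil (-0.99, held), Bcl3 (1.05, rising) and Traf1 (0.92, held), and Scimp (2.00, late start) and Trim21 (2.00, unclassed), whose unrounded values fall on either side of 4-fold.

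**Figure D1:**
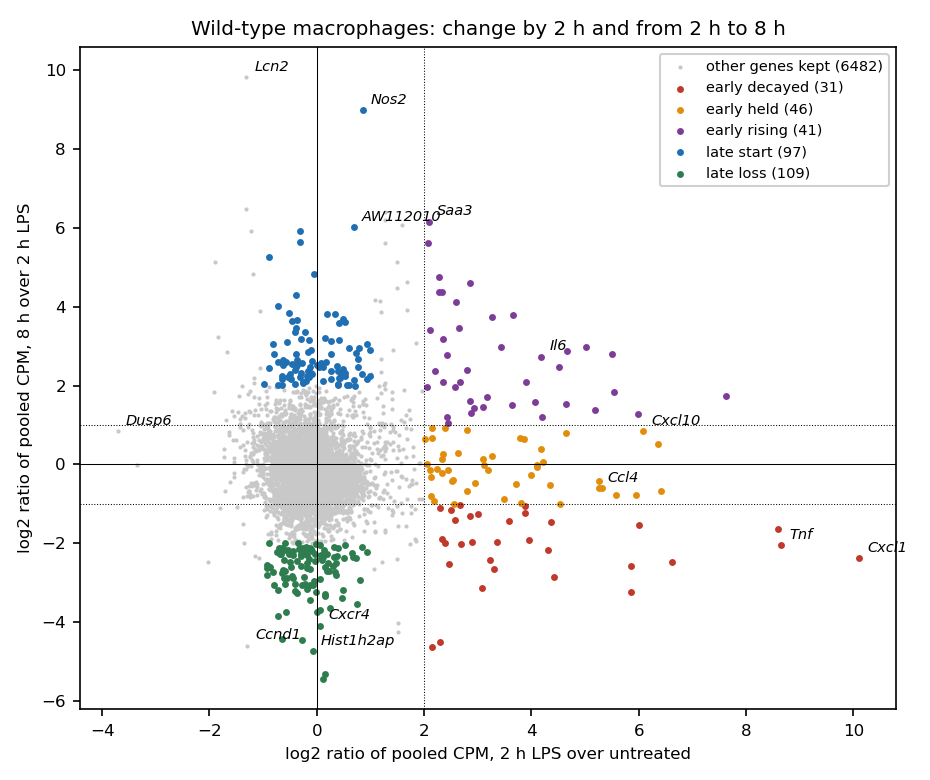
Each point is 1 of the 6806 genes kept, with the log2 ratio of pooled CPM at 2 h over untreated on the horizontal axis and at 8 h over 2 h on the vertical axis, coloured by time class and with dotted lines at the class limits. The 118 early genes at the right spread from a log2 ratio of -4.64 to 6.16 at 8 h over 2 h.

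Promoters of 5 genes from the classes are printed to show the sequence that the early and late genes carry before and around their start. Each is a RefSeq sequence of GRCm38.p6, from 250 bases before to 50 bases after the transcription start, and capitals mark matches to NF-kappaB, the core of the interferon-stimulated response element (ISRE), AP-1, GAS or TATA motifs on either strand. Cxcl1 (decayed) lies on the plus strand at chr5:90890995-90891294, Nfkbia (held) on the minus strand at chr12:55492598-55492897 and Cxcl10 (held) on the minus strand at chr5:92348840-92349139. Gbp2 (rising) lies on the plus strand at chr3:142620413-142620712 and Gbp7 (late start) on the plus strand at chr3:142530086-142530385.
Cxcl1: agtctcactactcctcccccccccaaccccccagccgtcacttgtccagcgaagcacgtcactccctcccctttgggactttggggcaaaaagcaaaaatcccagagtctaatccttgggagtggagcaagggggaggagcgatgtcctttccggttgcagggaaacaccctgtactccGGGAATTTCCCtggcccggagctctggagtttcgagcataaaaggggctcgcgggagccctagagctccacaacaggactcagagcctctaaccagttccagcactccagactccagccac
Nfkbia: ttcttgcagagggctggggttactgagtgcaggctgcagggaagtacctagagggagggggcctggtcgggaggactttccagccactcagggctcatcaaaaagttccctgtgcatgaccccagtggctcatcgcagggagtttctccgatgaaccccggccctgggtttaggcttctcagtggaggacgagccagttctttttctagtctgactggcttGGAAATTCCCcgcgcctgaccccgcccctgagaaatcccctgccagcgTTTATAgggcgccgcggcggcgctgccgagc
Cxcl10: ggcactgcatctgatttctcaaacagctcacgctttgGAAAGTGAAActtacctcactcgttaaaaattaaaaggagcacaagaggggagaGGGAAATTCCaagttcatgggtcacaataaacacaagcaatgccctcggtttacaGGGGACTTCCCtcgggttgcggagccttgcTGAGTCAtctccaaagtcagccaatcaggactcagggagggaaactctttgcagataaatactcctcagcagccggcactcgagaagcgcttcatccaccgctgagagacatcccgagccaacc
Gbp2: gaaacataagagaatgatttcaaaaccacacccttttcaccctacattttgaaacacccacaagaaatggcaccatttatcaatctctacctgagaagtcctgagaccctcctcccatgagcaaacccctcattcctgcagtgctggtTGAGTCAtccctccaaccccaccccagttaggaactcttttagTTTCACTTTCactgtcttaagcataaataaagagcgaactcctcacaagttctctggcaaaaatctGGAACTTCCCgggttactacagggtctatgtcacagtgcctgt
Gbp7: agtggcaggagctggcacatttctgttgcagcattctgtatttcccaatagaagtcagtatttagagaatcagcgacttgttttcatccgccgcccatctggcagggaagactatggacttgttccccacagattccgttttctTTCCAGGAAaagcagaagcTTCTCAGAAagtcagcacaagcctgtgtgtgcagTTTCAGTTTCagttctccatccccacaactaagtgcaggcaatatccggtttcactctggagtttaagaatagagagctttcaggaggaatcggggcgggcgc
The Cxcl1 promoter held overlapping NF-kappaB matches 71 and 70 bases before the start and no ISRE match. Nfkbia held an NF-kappaB match 29 bases before the start. Cxcl10 held both kinds, with NF-kappaB matches at 159, 104 and 103 bases and an ISRE match at 213 bases before the start. The ISRE match lay 59 bases before the start of Gbp2 and 53 bases before that of Gbp7. Gbp2 also had an NF-kappaB match at base 8 after the start and an AP-1 match 102 bases before it. Gbp7 also had GAS matches (TTCNNNGAA) and no NF-kappaB match. A match is a description of letters in this window and not a binding site.

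Over the classes, NF-kappaB matches were found in 25.8% of 31 promoters of decayed genes, 23.4% of 47 of held, 18.4% of 38 of rising, 15% of 80 of late start and 7.62% of late loss genes, against 8.46% of all 32851 promoters in the table. ISRE matches ran another way, with 6.45%, 4.26%, 23.7%, 18.8% and 1.90% in the same order and 3.44% of all promoters. AP-1 matches (TGANTCA) stood at 31.6% in rising genes against 7.81% of all promoters and lay between 5.71% and 12.5% in the other classes. TATA matches (TATAAA) were in 44.7% of the promoters of rising genes against 13.6% of all, and the CArG box of SRF was in 0% of decayed and 1.63% of all promoters. Among the promoters of all genes kept, NF-kappaB matches were in 10.468%, ISRE in 3.76%, AP-1 in 5.33% and TATA in 7.81%. The median number of CG dinucleotides in the window was 11 for decayed, 19 for held and 4.5 for rising genes. It was 7 for late start and 18 for late loss genes. The same median was 20 for all genes kept and 7 for all promoters in the table. Promoters were found for 22 of 31 decayed, 39 of 46 held, 32 of 41 rising, 65 of 97 late start and 76 of 109 late loss genes, and some genes had more than 1.

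The decayed genes included 2 of the 17 kept cytokine genes, 2 of the 15 kept chemokine genes and 3 of the 13 kept immediate early transcription factor genes, beside 0.455% of all genes kept. As a sum, their share of all UMIs was 0.109% untreated, 2.05% at 2 h (2.03 to 2.08) and 0.521% at 8 h (0.510 to 0.533), which is 3.94-fold lower at 8 h. In the wells, the median share went from 2.11% to 0.436%. The pools of 2 h and 8 h did not overlap for 28 of the 31 genes, all lower at 8 h, beside 493 (7.24%) of all genes kept. The class rule, applied to the sums of these pools, favours such a separation, so it is no support for the class. By 8 h a median of 17.98% of the 2 h increase was left. Of the 31 genes, all lower by the rule beside 62.1% of all genes kept that were lower at all, 21 were still at least 2-fold and 13 at least 4-fold over untreated, and 4 were below the untreated level.

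Among secreted proteins, Tnf, the prototype inflammatory cytokine, stood at 7.61 CPM untreated, 3058 CPM at 2 h and 744 CPM at 8 h, a log2 ratio of -2.04 (-2.14 to -1.94). Its pools ran from 2061 to 4101 CPM at 2 h and from 494 to 1000.5 CPM at 8 h, so they did not overlap. The share of wells with Tnf was 100% at 2 h and 88.5% at 8 h. The neutrophil chemokine gene Cxcl1 had 0 UMIs untreated and stood at 2294 CPM at 2 h and 444 CPM at 8 h (-2.37, -2.49 to -2.25), in 99.4% and 73.5% of wells. Cxcl2, which acts on the same receptor, went from 4833 to 1566 CPM (-1.63) and was found in 100% and 95.7% of wells. Both chemokines were thus lower in level more than in the number of wells that held them. Tnfsf9, the 4-1BB ligand, was at 31.1 CPM untreated, 1804 CPM at 2 h and 192 CPM at 8 h (-3.24, -3.42 to -3.06), and the stress cytokine gene Gdf15 at 134, 1253 and 233 CPM (-2.42).

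The lowest 8 h to 2 h ratios in the class belonged to genes inside the cell. In the same order of samples, Dusp4, a MAP kinase phosphatase, had 21, 77 and 4 UMIs (-4.64, -6.56 to -3.23). Cited2, a CBP/p300-binding regulator, stood at 140, 684 and 30.2 CPM (-4.50, -4.96 to -4.08), and its pools ran from 632 to 755 CPM at 2 h and from 0 to 87.8 CPM at 8 h. Dusp4 and Cited2 were the 2 decayed genes at least 2-fold below the untreated level at 8 h. Bcl2l11, which encodes the pro-apoptotic protein BIM, had a log2 ratio of -3.12 and was found in 57.5% and then 10.3% of wells. Nfkbiz, which encodes the atypical inhibitor IkappaB-zeta that the transcription of secondary genes such as Il6 needs, went from 638 to 107 CPM (-2.57) and from 95% to 45.5% of wells. Cd83 (-2.66), Phlda1 (-2.85) and the inhibitors of helix-loop-helix factors Id3 (-2.49) and Id2 (-1.40) were also in the class, as were Rel (-2.01), an NF-kappaB subunit, Junb (-1.45), an AP-1 subunit, and Nlrp3 (-1.53), the inflammasome sensor. All of these log2 ratios lie further below 0 than the median of all genes. Plk2 (-1.97), a p53-responsive kinase gene, Ppp1r15a (-1.32), which encodes a regulator of eIF2alpha phosphorylation, Zc3h12c (-1.27), an RNase gene, and Nfkbie (-1.16), the gene of IkappaB-epsilon, had pools that did not overlap.

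Receptors were fewer. Cx3cr1, the fractalkine receptor gene, stood at 35.3 CPM untreated, 177.9 CPM at 2 h and 47.6 CPM at 8 h (-1.90, -2.30 to -1.52), and the share of wells went from 64.1% to 20.6%. Tlr2, the lipopeptide receptor gene, was at 41.5, 204 and 94.5 CPM (-1.11). The 8 h pools lay below the 2 h pools for both, and neither had returned fully to the untreated level.

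Some known early transcripts were too rare to be kept by the filter. Ifnb1, the gene of interferon beta, had 0 UMIs untreated, 55 at 2 h and 0 at 8 h. It was found in 18.8% of wells at 2 h (13.4 to 25.2) and in 0 of 253 wells at 8 h, which allows a share of wells with a UMI of up to 1.19% (3 wells) and has a two-sided Clopper-Pearson limit of 1.45%. Against a floor of 3 UMIs it was at least 23.8-fold lower in CPM at 8 h. Egr2, an immediate early transcription factor gene, had 5, 58 and 6 UMIs (-3.65, -5.16 to -2.44), in 2.10%, 26.5% and 1.98% of wells. Both were seen in a minority of wells at 2 h and in few or none at 8 h.

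The held genes were the largest early group by UMIs at 2 h. Their sum was 0.259% of UMIs in untreated cells, 3.93% at 2 h and 3.76% at 8 h, a log2 ratio of -0.06 that was 0.20 with the deep wells kept and 0.0824 under median-of-ratios scaling. The share in 251 of the 253 wells at 8 h lay inside the range of the 2 h wells. Gene by gene, the counting interval of the 8 h to 2 h ratio excluded 0 on the log2 scale for 33 of 46. It did so for 3017 of all 6806 genes kept. Of all 46, 28 were lower and 18 higher, beside 62.1% of all genes kept that were lower. The pools of both times did not overlap for 5 lower and 2 higher genes. Over all genes kept this was so for 493 (7.24%) lower and 405 (5.95%) higher genes.

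The CC chemokine genes, whose products attract monocytes and T cells, made up much of this sum. Ccl4 stood at 207 CPM untreated, 7910 CPM at 2 h and 5220 CPM at 8 h (-0.60, -0.64 to -0.56). Ccl2 went from 7013 to 5788 CPM (-0.28, or 0.18 with the deep wells kept) and Ccl7 from 3008 to 3145 CPM (0.06, 0.00 to 0.13). Ccl3 was higher at 8 h, at 7080 CPM against 5374 CPM (0.40, 0.35 to 0.44). The pools overlapped for Ccl2, Ccl3 and Ccl7 and did not for Ccl4, which ran from 7052 to 9201 CPM at 2 h and from 3801 to 5911 CPM at 8 h. Cxcl10, whose product recruits CXCR3-bearing T cells, stood at 39.4, 2676 and 4781 CPM (0.84, 0.78 to 0.90), with pools from 2319 to 3150 CPM at 2 h and from 4053 to 5095 CPM at 8 h. Its share of wells was 97.8% and 97.6%, so the higher sum came with more UMIs per positive well.

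Several feedback inhibitors were in this class. Nfkbia, which encodes the NF-kappaB inhibitor IkappaB-alpha, stood at 112 CPM untreated, 2273 CPM at 2 h and 1569 CPM at 8 h (-0.53, -0.61 to -0.46). Tnfaip3, the gene of A20, had a log2 ratio of -0.43, Zfp36, the gene of tristetraprolin, one of -0.49 and the MAP kinase phosphatase gene Dusp1 one of -0.59. Each was lower at 8 h by less than 2-fold. Socs3, an inhibitor of STAT3 signalling, was at 0.51 and the transcription factor gene Cebpb at 0.65, from 619 to 971 CPM. Il12b, which encodes the shared subunit of interleukins 12 and 23, went from 86.02 to 150.4 CPM (0.81, 0.47 to 1.15) with wells from 28.2% to 36.4%, and its pools overlapped. Peli1, an E3 ubiquitin ligase gene of TLR signalling, was at -0.67. The RNase gene Zc3h12a (-0.08), and Birc3 (0.14) and Cflar (0.28), whose products protect from cell death, lay near equal levels and their pools overlapped. Icam1, an adhesion molecule gene, at 492 and 249 CPM (-0.98, -1.17 to -0.80), and Irf1, a transcription factor gene, at 318 and 173 CPM (-0.88), were close to the decay limit and had pools that did not overlap.

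The rising genes had started at 2 h and stood far higher at 8 h. Their sum was 0.0781% of UMIs in untreated cells, 0.748% at 2 h and 4.92% at 8 h (4.89 to 4.95), 6.57-fold higher at 8 h. All 253 wells at 8 h exceeded the median 2 h well and 252 exceeded the highest 2 h well. The pools did not overlap for 35 of 41 genes, all higher at 8 h, beside 405 (5.95%) of all genes kept. Both separations, of wells and of pools, are favoured by the class rule and are no support for it.

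Transcripts of 2 secreted proteins carried most of this sum. Saa3, an acute phase serum amyloid gene, stood at 45.0 CPM untreated, 191 CPM at 2 h and 13708 CPM at 8 h (6.16, 5.98 to 6.36). It was found in 31.5% of wells at 2 h and in all at 8 h, and its pools ran from 89.04 to 324 CPM and from 11215 to 15560 CPM. Ccl5, a chemokine of T cells, stood at 65.04, 818 and 11387 CPM (3.80, 3.71 to 3.89). Complement factor B, from Cfb, had 2, 7 and 447 UMIs (5.62, 4.56 to 6.94), and the formyl peptide receptor gene Fpr2 had 2, 8 and 279 UMIs (4.75, 3.75 to 5.97). Both had few UMIs at 2 h, and their place among early rather than late start genes rests on those few.

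The interleukin genes of the class started unevenly between wells. Il6 had 3, 45 and 390 UMIs (2.74, 2.29 to 3.22) and was found in 19.3% of wells at 2 h and 47.4% at 8 h. Il1b, at 0 UMIs untreated, went from 413 to 1375 CPM (1.74) and from 72.9% to 92.5% of wells. Its natural antagonist, encoded by Il1rn, went from 191 to 2090 CPM (3.45, 3.26 to 3.65) and from 49.7% to 99.2% of wells. Ptgs2, the gene of cyclooxygenase-2 of prostaglandin synthesis, went from 94.4 to 654 CPM (2.79) and from 34.8% to 82.6% of wells. Irg1, which makes itaconate, was at 1.29, Sod2, the mitochondrial superoxide dismutase gene, at 1.96 and the costimulatory receptor gene Cd40 at 1.96. Il1a (2.87), Il27 (2.37), Edn1, the endothelin-1 gene (2.47), the chemokine gene Ccl12 (2.77) and the matrix metalloprotease genes Mmp13 (2.99) and Mmp14 (4.38) had 8 h pools above all 2 h pools. Il1a and Mmp13 were found in 9.94% and 8.29% of wells at 2 h and in 31.6% and 33.6% at 8 h, a minority at both times. Reads of Bcl2a1a, Bcl2a1b, Bcl2a1c and Bcl2a1d, near-identical copies in this class, may have been split between them and are uncertain.

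The late start genes were nearly silent or at their untreated level at 2 h. Their sum was 0.386% of UMIs in untreated cells, 0.421% at 2 h and 2.68% at 8 h (2.65 to 2.70), 6.35-fold higher than at 2 h. The pools did not overlap for 88 of 97 genes, all higher at 8 h, beside 405 (5.95%) of all genes kept, which the class rule favours. All 253 wells at 8 h lay above the median 2 h well, which also follows in part from picking the genes by sums of these wells. Of the 97, 40 had fewer than 20 UMIs at 2 h, so that the size of their ratio is loosely known. The place of the rarest in this class also rests on few UMIs. Slamf1 and Csf3 had 0 UMIs untreated and 2 at 2 h and were placed by the floor of 3 UMIs.

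Nos2, which encodes inducible nitric oxide synthase, had the highest ratio of the class. It had 2 UMIs untreated, 3 at 2 h and 1991 at 8 h, a log2 ratio of 8.996 with a counting interval of 7.45 to 11.3. It was found in 0.840% of untreated wells, 1.66% at 2 h and 94.5% at 8 h, and its 8 h pools ran from 1009.9 to 1730 CPM. AW112010 (9, 12 and 1014 UMIs), Slamf1 (0, 2 and 158), a receptor of the SLAM family, and Csf3 (0, 1.67 and 84.2 CPM), the gene of granulocyte colony-stimulating factor, followed at 6.02, 5.93 and 5.66. Csf3 was found in 22.9% of wells at 8 h and Slamf1 in 38.7%, so that their late start was seen in a minority of wells. Irak3 (3.67), which encodes an inhibitor of TLR signalling, the glycolytic regulator gene Pfkfb3 (3.70) and the interleukin 4 receptor gene Il4ra (3.85) were also of this class. Casp1, the caspase-1 gene, was at 65.04 CPM untreated, 50.1 CPM at 2 h and 289 CPM at 8 h (2.53, 2.14 to 2.94). Il18, the gene of a cytokine that caspase-1 processes, was at a log2 ratio of 2.22 and Il18bp, the gene of the protein that binds it, at 3.22. The activating Fc receptor genes Fcgr1 (2.32) and Fcgr4 (2.51) and the transcription factor gene Batf (3.06) had pools that did not overlap.

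Interferon-induced genes fell only in part into the rising and late start classes. Of 43 kept antiviral interferon-stimulated genes 2 were rising and 12 late start, and most were in no class. Of 11 kept guanylate-binding protein and immunity-related GTPase genes 2 were rising and 5 late start. Over all genes kept, 0.602% were rising and 1.43% late start. Iigp1, an immunity-related GTPase, had 18, 8 and 399 UMIs (5.26, 4.27 to 6.48), and Mx1, an antiviral GTPase, 19, 12 and 306 UMIs (4.29, 3.47 to 5.26). Isg20, an exonuclease gene, went from 50.1 to 704 CPM (3.81) and from 22.7% to 94.1% of wells. Gbp7 went from 26.7 to 238 CPM (3.16) and Gbp2, already 4-fold up at 2 h, from 50.9 to 541 CPM (3.41). All 11 kept genes of the guanylate-binding protein and immunity-related GTPase list were at least 2-fold higher at 8 h, with a median log2 ratio of 3.05. In the list of antiviral interferon-stimulated genes, 32 of 43 were at least 2-fold higher, 0 at least 2-fold lower and the median was 1.59. Irf1 went the other way at -0.88. Ifit1 went from 136 to 512 CPM between 2 h and 8 h (1.91). Some of these, Ifit3 with Ifit3b, Phf11 and Pnp with Pnp2, have near-identical copies and are uncertain.

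Of the 150 genes at least 4-fold higher, 24 were rising, 97 late start and 29 fell into no class. Of these 29, 11 had fewer than 10 UMIs both untreated and at 2 h, so that their 2 h ratio says little. They were listed after their values were seen and include Lcn2, the siderophore-binding lipocalin 2, with 0, 1 and 1181 UMIs (9.83, 7.35 to 15.1) and 76.3% of wells at 8 h, and Ccl8 with 9, 2 and 91 UMIs. The other 18 had moved at 2 h by more than the late start rule allows and by less than the early rule asks, or had been lower at 2 h. Cd274, the gene of PD-L1, stood at 17.99, 65.1 and 548 CPM (3.07, 2.74 to 3.43), and Stat2 at 85.8, 26.7 and 194 CPM (2.86, 2.33 to 3.43).

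The late loss class held 13 of the 27 kept cell cycle genes and 9 of the 13 kept replication-dependent histone genes, beside 1.60% of all genes kept. Its sum over all 109 genes was 0.939% of UMIs in untreated cells, 0.859% at 2 h and 0.139% at 8 h (0.133 to 0.145), which is 6.19-fold lower. The pools did not overlap for 97 of 109 genes, all lower at 8 h, beside 493 (7.24%) of all genes kept, which the class rule favours. No well at 8 h reached the median 2 h well, and 216 of 253 lay below the lowest 2 h well. This too follows in part from picking the genes by sums of these wells.

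Histone genes had the lowest ratios. In the order untreated, 2 h and 8 h, Hist1h2ae had 75, 67 and 2 UMIs (-5.44, -8.52 to -3.53), Hist1h1b had 100, 92 and 3 (-5.32) and Hist1h2ap 606, 475 and 23 (-4.75, -5.42 to -4.14). In a list of histone genes drawn up after these values were seen, 13 of 34 genes were kept. Of these 13, 11 were at least 2-fold lower. Histone genes share sequence, and reads between them may be misassigned. In the cell cycle list, 27 of 44 genes were kept. Of these 27, 24 were at least 2-fold lower, none at least 2-fold higher, and the median log2 ratio was -2.44. Mki67, the proliferation marker, was found in 26.1% of untreated wells, 35.9% at 2 h and 9.49% at 8 h. Top2a, the topoisomerase of chromosome separation, was found in 28.2%, 32.6% and 5.93% of wells, and Cdk1, the mitotic kinase, in 21.8%, 24.3% and 2.37%. For these 3 genes the 8 h share lay below the counting intervals of both other samples. The replication genes Mcm3 (-3.30) and Mcm5 (-2.81) and the maintenance DNA methyltransferase gene Dnmt1 (-2.57) were of the same class.

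Outside the cell cycle, Cxcr4, a chemokine receptor gene, stood at 83.7, 87.7 and 5.14 CPM (-4.09, -5.34 to -3.06) and was found in 39.8% of wells at 2 h and 3.16% at 8 h. Klf2, a transcription factor gene known to restrain myeloid activation, had 45, 65 and 11 UMIs (-2.94, -4.01 to -2.01). Tgfbr1, a receptor of TGF-beta, was at -2.37, Tlr13, a receptor of bacterial ribosomal RNA, at -2.29, Tnfsf12, the gene of the cytokine TWEAK, at -2.19 and Rgs2, a regulator of G protein signalling, at -2.11. Pmp22 stood at 311, 366 and 56.6 CPM (-2.69, -3.04 to -2.36) and was found in 81.8% and then 27.7% of wells. The pools of 2 h and 8 h did not overlap for these genes.

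Losses at 2 h were few. Dusp6, a phosphatase of ERK, had 95, 6 and 14 UMIs, Txnip, an inhibitor of thioredoxin and glucose uptake, 209, 17 and 22, and Paqr7 84, 17 and 4. These are the 3 genes (0.0441%) at least 4-fold below untreated at 2 h, and none of them was at least 2-fold higher again at 8 h. Of the 134 genes at least 4-fold lower at 8 h, 15 were decayed, 109 late loss, and a few were in no class. Ccnd1, the gene of cyclin D1, had 555 UMIs in untreated cells and only 10 at 8 h (log2 ratio of 8 h to 2 h -4.60). Hmgb2, a chromatin protein gene, was high at 2 h, at 112, 319 and 16.7 CPM (-4.25, -4.89 to -3.68). Both were named after their values were seen.

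Among late effectors 17 of 20 kept genes were at least 2-fold higher, with a median log2 ratio of 3.37, and among cytokines 11 of 17 were higher and 3 lower, with a median of 1.74. Chemokines were mixed, with 4 of 15 higher, 2 lower and a median of 0.40. Costimulatory genes had 9 of 16 higher and 2 lower, and genes of MHC class I presentation 8 of 19 higher and none lower (median 0.65), with Tap1, the peptide transporter gene, at 2.26. The immediate early transcription factors, of which 13 of 24 in the matrix were kept, had 6 members at least 2-fold lower, none higher and a median of -0.54. NF-kappaB pathway genes had 3 of 19 higher and 3 lower (-0.31), MAP kinase phosphatases 0 and 2 of 9 (-0.46) and the mRNA decay factors 0 and 1 of 11 (-0.32). The 2-fold background over all genes is 6.89% higher and 10.0% lower.

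Housekeeping lists lay near the median of all genes. None of 76 ribosomal protein genes (median -0.16), of 32 genes of oxidative phosphorylation (-0.25) or of 13 mitochondrially encoded genes (-0.05) was past 2-fold, and the last median was 0.43 with the deep wells kept. In glycolysis 4 of 18 genes were at least 2-fold higher and none lower, with a median of -0.04 that was 0.10 under median-of-ratios scaling. The 4 were Pfkfb3 (3.70), Hif1a (1.66), Slc2a6 (1.51) and the glucose transporter gene Slc2a1 (1.19). Scavenger and identity genes of macrophages had 6 of 31 lower and 3 higher (median -0.56). Cx3cr1, Stab1 and Gas6 were among the lower genes, and the scavenger receptor gene Msr1 and the Fc receptor genes Fcgr2b and Fcgr1 were the higher ones.

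The study sorted inducible macrophage genes into primary classes A1+2 and B and secondary classes C to F, a grouping taken from earlier work and not from these cells. Of the 356 genes, 337 were kept. The median log2 ratio of 8 h to 2 h was -0.59 for class A1+2. It was -0.15 for class B, where 2 of 28 genes were at least 2-fold higher and 4 lower, beside -0.17 for all genes kept. It was 0.32 for class C, 1.29 for D, 2.01 for E and 2.00 for F. In A1+2, 16 of 37 genes were at least 2-fold lower and 1 higher, and the class held 9 of the 31 decayed genes and 8 held ones. Class C, labelled secondary, held 14 decayed, 24 held and 9 rising genes among its 76, with 16 at least 2-fold higher and 15 lower. In class E 56 of 72 and in class F 56 of 63 genes were at least 2-fold higher and 0 lower, and these classes held 19 and 29 late start genes.

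**Figure D2:**
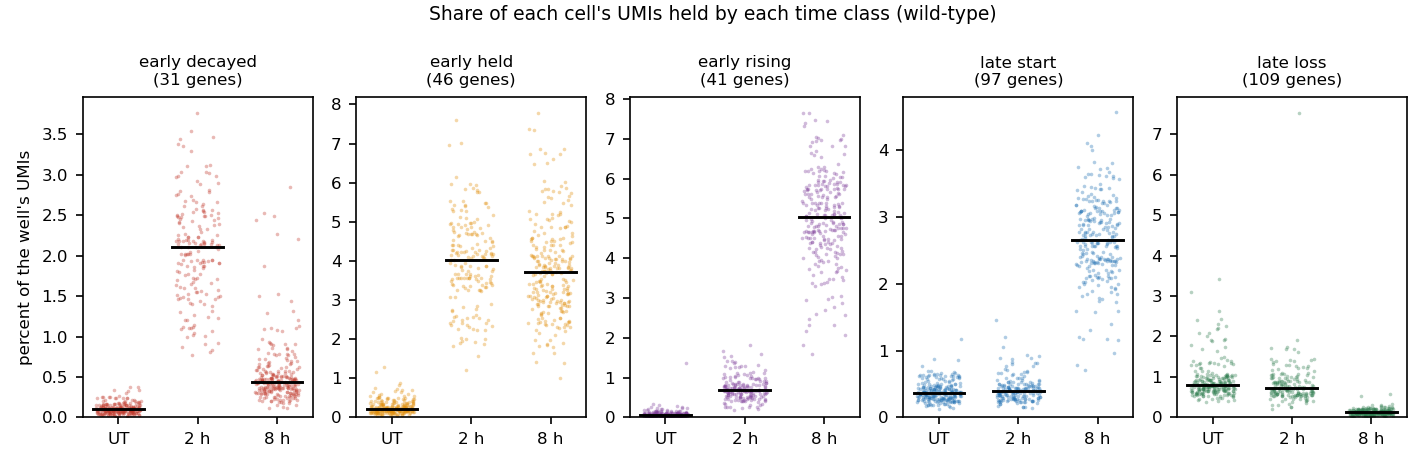
Percent of each well's UMIs that fell on the genes of a time class, with 1 point per wild-type well in the untreated, 2 h and 8 h samples and a bar at the median. For decayed genes the median is 2.11% at 2 h and 0.436% at 8 h, and for late start genes all 253 wells at 8 h lie above the 2 h median. The classes were picked by sums of these same wells, which favours such differences.

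Nearly all wells at 8 h had the lower share of decayed genes. For decayed genes 6 of the 253 wells at 8 h were above the median 2 h well. They came from 4 pools and held 33 to 73 UMIs of Cxcl2, where the median well had 6 at 8 h and 28 at 2 h. Their late start genes took 0.715 to 2.31% of UMIs, at or below the lower quartile of the 8 h wells of 2.31% and above the 2 h median of 0.394%. These wells were picked by their decayed share, so that their high Cxcl2 follows from the choice. One 2 h well had 7.53% of its UMIs on late loss genes, where the median was 0.718%.

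The log2 ratio of a gene's mean CPM over wells, which weighs each well equally, splits into 2 additive parts. The share part is for how many wells had a UMI and the level part for the CPM of those wells. Their sum can differ from the pooled log2 ratio. In decayed genes the median parts were -1.06 for the share and -0.56 for the level, and the share part was larger in 21 of 31. In rising genes they were 1.20 and 0.98, with the share part larger in 22 of 41. In late start genes the parts were 1.79 and 0.73 and the share part was larger in 86 of 97, and in late loss genes they were -2.22 and -0.29, the share part being larger in all but 3 of 109. The median share of wells went from 64.6% to 26.1% in decayed, from 26.5% to 70.8% in rising, from 14.9% to 59.7% in late start and from 24.9% to 5.14% in late loss genes. Wells thinned to 3800 UMIs each, which leaves out 21 wells at 2 h and 29 at 8 h, gave share parts of -1.25, 1.503, 2.117 and -2.29 and level parts of -0.49, 0.79, 0.45 and -0.22. A positive well cannot fall below 1 UMI, which limits how far the level of rare genes can be lower.

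**Figure D3:**
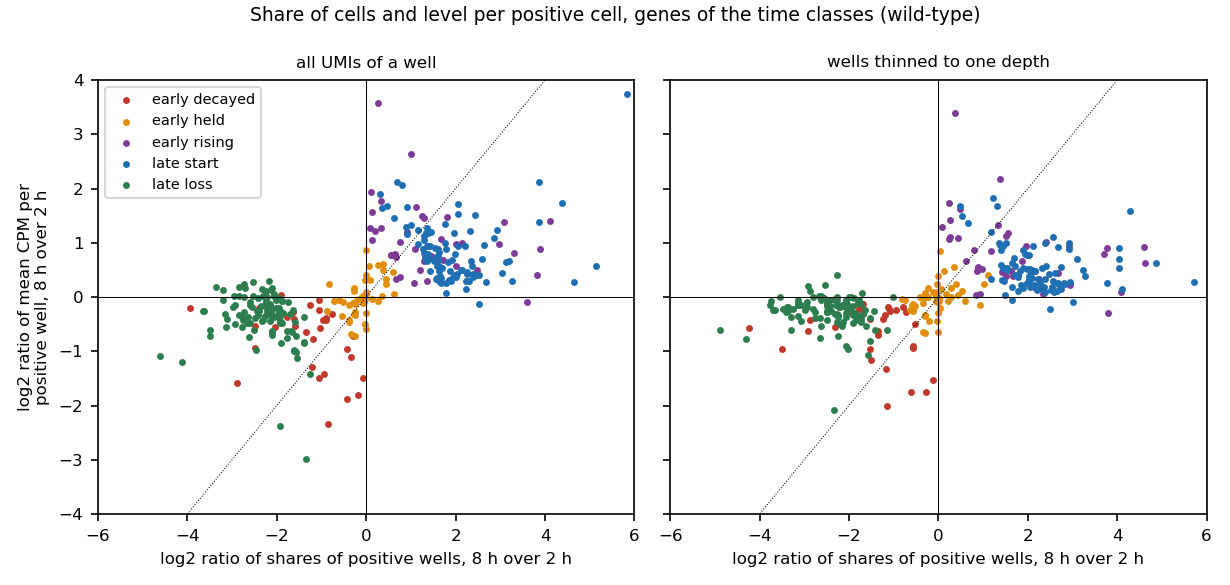
For each class gene, the log2 ratio of mean CPM over wells at 8 h over 2 h is split into 2 parts. The share part comes from the share of positive wells (horizontal axis) and the level part from CPM per positive well (vertical axis). Both are drawn for all UMIs and for wells thinned to 3800 UMIs. Late loss genes lie along the share axis, with median parts of -2.22 and -0.29.

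In Rad21-/- macrophages, which the class rules did not use, the same classes moved in the same direction. Rad21 stood at 50.9 CPM in wild-type and 8.01 CPM in Rad21-/- cells at 2 h and at 34.1 and 6.92 CPM at 8 h, and the Rad21-/- samples gave 406 wells. All 31 decayed genes were lower at 8 h than at 2 h, and none was higher, 25 of them at least 2-fold (4.47% of all genes kept), although 1 by less than 0.01 on the log2 scale. Of the rising genes 38 of 41 were higher (51.0% of all genes kept were), 35 at least 2-fold (5.99%), and of the late start genes 96 of 97, 82 at least 2-fold. Of the late loss genes 93 were lower, 60 of them at least 2-fold, and 16 higher, 3 of them at least 2-fold. Their median log2 ratio was -1.10 against -2.57 in wild-type cells. The median of the cell cycle list was -0.39 in Rad21-/- and -2.44 in wild-type cells, and that of the histone list 0.53 and -2.90. The cell cycle list summed to 997 CPM at 2 h and 794 CPM at 8 h in Rad21-/- cells. In wild-type cells it summed to 2873 and 793 CPM. The histone list summed to 443 and 468 CPM in Rad21-/- and to 1379 and 260 CPM in wild-type cells. The held genes took 1.81% and 1.68% of UMIs, and the late start genes 0.268% and 0.954%, against 0.421% and 2.68% in wild-type cells. The classes were picked by the wild-type ratios, a choice that by itself favours larger changes in wild-type than in Rad21-/- cells. Both genotypes share library pools and each is 1 sample, so the difference in size was not tested.

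**Figure D4:**
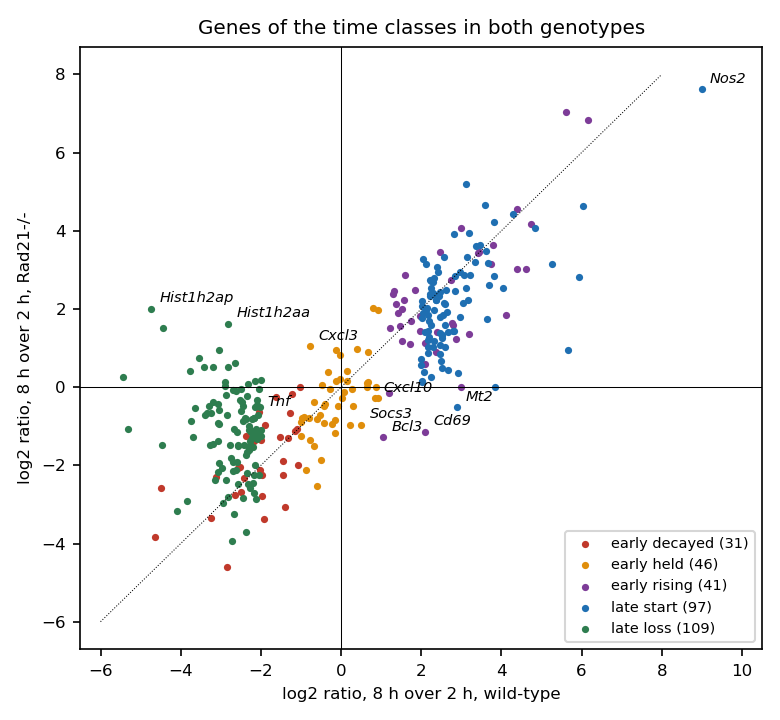
Log2 ratio of pooled CPM at 8 h over 2 h of each class gene in wild-type (horizontal axis) and Rad21-/- macrophages (vertical axis), coloured by time class. All 31 decayed genes lie below 0 on both axes, and late loss genes have medians of -2.57 and -1.10.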

How the data were processed

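Single-cell transcripts were measured by MARS-seq. Per the study's methods, the authors demultiplexed reads, mapped them with GEMTools 1.7.0 to GRCm38.p4 with Gencode M8, discarded wells by spike-in share, mapped share and read number, and collapsed UMIs. The authors deposited whole-number UMI counts per gene and well, without normalization. The submitters' processing notes list the builds GRCm38.p4, mm10, GRCh38.p5 and CanFam3.1 with no role. The methods state that genes in few cells were discarded, yet many rare genes are in the matrix. Every per-sample column was mapped to a sample by its name, and 2 rows with a repeated symbol (March2) were left out.

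Counts were summed over the wells of a sample (at most 25000 UMIs a well) and divided by all UMIs of those wells to give CPM per 1000000. Genes needed 100 UMIs over the 3 wild-type samples, and a sample at 0 entered with a floor of 3 UMIs. With 1 sample per condition, called means past the stated fold. Shares carry Clopper-Pearson intervals and ratios exact conditional binomial intervals at 95%. Thinning used 3800 UMIs, the largest multiple of 100 that keeps 80% of wells of every wild-type sample. Pool ranges use pools of at least 10 wells. Steps were run with Python 3.11.15, numpy 2.4.6, pandas 2.3.3, scipy 1.17.1 and matplotlib 3.10.9 and were tested on simulated data. Gene symbols were matched to RefSeq of GRCm38.p6 for 16122 of 18429 genes.

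The members, the 26 gene lists and the rules were chosen with earlier results of these data known, and the histone list and the genes named outside the time classes after their values were seen. Named genes were 10 decayed, 8 held (highest CPM at 8 h), 8 rising, 10 late start and 8 late loss genes with the most extreme ratio, up to 4 early loss genes, up to 6 members of each list with the largest absolute log2 ratio together with members against it, and the genes the study names as measured in macrophages. Other class members named in the text were picked by their known role. The alternatives were other scalings, keeping all wells, thinning, equal weight per well, other minimum counts and fold limits, positive wells from 2 UMIs, promoters without the bases after the start, and leaving out each pool. 1 gene is not reported here.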

Additional observations from a re-analysis of the deposited data

Results flagged for a closer look

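Among the 397 genes that the text or the classes cover, 12 had 8 h to 2 h ratios of opposite sign in wild-type and Rad21-/- cells. Their counting intervals lay on opposite sides of 0. Over all 6806 genes kept, 136 did so. Each condition is 1 sample, and the difference between genotypes was not tested. Higher at 8 h in wild-type and lower in Rad21-/- cells were Mt2, a metallothionein gene (log2 ratio 2.89 and -0.50), the activation marker gene Cd69 (2.09 and -1.14), Bcl3, an NF-kappaB cofactor gene (1.05 and -1.27), Cxcl10 (0.84 and -0.29) and Socs3 (0.51 and -0.96). Lower in wild-type and higher in Rad21-/- cells were the histone genes Hist1h2ap (-4.75 and 2.01) and Hist1h2aa (-2.81 and 1.62), the cholesterol synthesis genes Sqle (-0.99 and 1.43) and Fdps (-0.65 and 0.79, with 0.0406 in wild-type wells thinned to 3800 UMIs), the chemokine gene Cxcl3 (-0.77 and 1.04), Rps27l (-0.70 and 0.30) and Ndufb8 (-0.48 and 0.26). The levels behind the histone values were low in Rad21-/- cells, at 4.01 and 16.1 CPM for Hist1h2ap at 2 h and 8 h.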

How the results depend on the processing

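No paired analysis was possible because each condition has 1 sample, and no class sum, list median or named gene at or past 2-fold turned its direction under the alternatives run. The sum of held genes, the median level part of held genes and the medians of the mitochondrial, glycolysis, ER secretory and MHC class II lists, all under 2-fold, did, as did Atf3, Ccl2, Ccl7, Cd74, Fdps, Gm17268, H2-Aa, H2-Ab1 and Txnip. Class sums on the log2 scale were -1.98 for decayed, -0.06 for held, 2.72 for rising, 2.67 for late start and -2.63 for late loss genes. Keeping all wells gave -1.77, 0.20, 2.68 and 2.44 for the first 4, equal weight per well -1.94 (decayed), 2.75 (rising) and 2.62 (late start), thinning -2.56 (late loss), and median-of-ratios scaling -1.83, 0.0824, 2.86, 2.81 and -2.49. List medians with all wells kept were -1.19 for immediate early factors, 2.50 for GBP and IRG genes, 0.43 for mitochondrial genes, -1.003 for class A1+2 and 0.0631 for class C, and under median-of-ratios 0.54 for chemokines and 0.0934 for mitochondrial genes.

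Counts moved with the fold and UMI limits. With a minimum of 30 UMIs, 885 genes were higher, 1813 lower, 60 decayed, 151 late start, 306 late loss and 19 early loss; with 300 UMIs these were 224, 164, 17, 55, 22 and 0. With 1 UMI, 1689 were higher, 3182 lower, 133 decayed, 142 held, 201 late start, 549 late loss and 140 early loss. Asking the interval to lie past 2-fold left 271 higher and 209 lower. A split at 1.5-fold left 25 held. An early limit of 2-fold gave 59 decayed, 128 held, 81 rising and 118 early loss, and 8-fold gave 18, 25 and 19 early genes. Counting rare genes at least 4-fold higher as late start, chosen after seeing the data, added 11 genes to that class. Positive wells from 2 UMIs gave share parts of -1.95 (decayed), 2.01 (rising), 3.33 (late start) and -3.39 (late loss). Promoters without the bases after the start held TATA in 3.23% and GAS in 0% of those of decayed genes.

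Leaving out each of 12 pools gave class sums of -2.02 to -1.95 (decayed), -0.115 to -0.0239 (held), 2.66 to 2.75 (rising), 2.64 to 2.71 (late start) and -2.69 to -2.58 (late loss), 456 to 536 genes higher and 670 to 730 lower, and classes of 29 to 34, 44 to 47, 38 to 42 and 93 to 103 genes for the first 4, with 2 to 4 early loss; the mitochondrial median ran from -0.108 to 0.0715. Of the named genes, none of the 103 past 2-fold turned its sign in 16 alternatives, and 11 values of Nlrc5, Bcl3, Prdm1, Btg2 and Psmb8 came under 2-fold.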
